A study of Macaca mulatta with 2 samples.

Results

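Expression of 5 cone photoreceptor genes was followed across untreated macaque retina: the opsins OPN1LW, OPN1MW3 and OPN1SW, the cone arrestin ARR3 and the cone transducin subunit GNAT2. They were chosen by name and are 5 of the 26533 features of the reference. The files name 4 of them by symbol, and OPN1MW3 was matched through its gene ID, ENSMMUG00000054361. The data are spatial transcriptomes (Visium, polyA capture, 3′ end counting), in which a grid of barcoded spots under a tissue section catches its messenger RNA, and each captured molecule carries a random tag, the unique molecular identifier (UMI), so that it is counted once. Several cells, or parts of cells of different types, can lie over the same spot. There were 2 sections, both from posterior eyecups of male rhesus macaques (Macaca mulatta), cut at 10 µm from 4 mm punches through retina, choroid and sclera. NHP1 was 5 years old and had received AAV2-CAG-hRPE65 under the retina of both eyes. NHP2 was 6 years old and had received AAV8-GRK1-mScarlet in some subretinal blebs, with AAV8-GRK1-hRPGR in others. In each animal the punch came from an uninjected area of the right eye, which had other areas that were injected and had been given subtenon triamcinolone and topical dexamethasone, neomycin and polymyxin B. With 1 section per animal there was no replicate check and no test between the animals. The 95% intervals given are exact (Poisson for UMI sums, Clopper-Pearson for shares, conditional binomial for ratios), and they cover counting error only.

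Cones are the photoreceptors of daylight and colour vision. Light changes the shape of a cone opsin, the opsin activates the cone transducin, whose alpha subunit is encoded by GNAT2, and transducin switches on a phosphodiesterase that lowers cGMP and closes the cation channels of the outer segment. ARR3 binds the activated, phosphorylated opsin and ends its signal. Each cone uses mainly 1 opsin: OPN1LW is the long-wavelength (red) opsin, OPN1MW3 belongs to the medium-wavelength (green) opsins, and OPN1SW is the short-wavelength (blue) opsin of a minority of cones. Rods carry a matching set, such as GNAT1 for transducin and SAG for arrestin, and outnumber cones over most of the primate retina outside the fovea.

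OPN1LW and OPN1MW3 lie in tandem on the X chromosome, so the sequences below show how far a short read can tell them apart. In the RefSeq annotation of the Mmul_10 build, OPN1LW (ENSMMUG00000006166) spans chrX:150144576-150159124 on the plus strand in 6 exons. OPN1MW3 spans chrX:150183047-150197510 on the same strand in 7 annotated exons, and 23922 bases separate the genes. Over 1092 compared coding bases, 26 were substituted, all of them in exons 2 to 5, and 97.5% were identical once a T missing from OPN1MW3 near its end was counted too. Exon 5 held 9 of them, more than any of the other exons, at chrX:150156396-150156635 in OPN1LW and chrX:150194823-150195062 in OPN1MW3. It is printed in the direction of the genes, and capitals mark the differing bases.
OPN1LW exon 5: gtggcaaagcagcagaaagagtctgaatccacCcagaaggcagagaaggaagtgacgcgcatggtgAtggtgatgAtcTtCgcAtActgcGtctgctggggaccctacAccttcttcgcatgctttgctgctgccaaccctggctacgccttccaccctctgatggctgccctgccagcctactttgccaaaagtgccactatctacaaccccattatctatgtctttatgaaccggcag
OPN1MW3 exon 5: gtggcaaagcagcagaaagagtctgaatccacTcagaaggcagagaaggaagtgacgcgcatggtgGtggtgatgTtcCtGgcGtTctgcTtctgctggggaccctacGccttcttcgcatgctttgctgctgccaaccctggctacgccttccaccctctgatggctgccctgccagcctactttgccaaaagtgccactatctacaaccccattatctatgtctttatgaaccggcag
Counted from 1 at the first base of the exon, with the base of OPN1LW first, the differences are C33T, A67G, A76T, T79C, C81G, A84G, A86T, G91T and A109G. Exon 6 is the last exon of OPN1LW, nearest to the polyA tail from which this assay starts. The annotation splits the matching stretch of OPN1MW3 into its exons 6 and 7, with a short gap that is included in the sequence printed here. The coding part, at chrX:150158911-150159018 in OPN1LW and chrX:150197338-150197444 in OPN1MW3, is printed next, and capitals mark the only feature that differs, a run of T.
OPN1LW exon 6, coding part: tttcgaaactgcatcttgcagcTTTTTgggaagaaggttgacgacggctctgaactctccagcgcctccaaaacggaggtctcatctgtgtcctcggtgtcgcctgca
OPN1MW3 exons 6 and 7 with the gap, coding part: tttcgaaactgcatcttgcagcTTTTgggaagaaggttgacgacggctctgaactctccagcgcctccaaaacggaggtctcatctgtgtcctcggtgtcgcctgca
The run has 5 T in OPN1LW and 4 in OPN1MW3, and the remainder of the OPN1LW exon held 0 differences from the matching OPN1MW3 stretch. That stretch ends at chrX:150197550, past the annotated end of OPN1MW3 at chrX:150197510. Reads from this 3′ end therefore carry almost no letter that separates these genes, and the split of UMIs between OPN1LW and OPN1MW3 is uncertain throughout. The other members were not compared with related genes in this way. OPN1SW (ENSMMUG00000060185) spans chr3:155017888-155021961 on the minus strand in 5 exons. ARR3 (ENSMMUG00000013935) spans chrX:67320968-67326686 on the plus strand in 12 exons. GNAT2 (ENSMMUG00000005819) spans chr1:114520694-114536350 on the plus strand in 10 exons.

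The NHP1 section covered 534 tissue spots with 1484784 UMIs (median 1473.5 per spot), and the NHP2 section covered 470 tissue spots with 805726 UMIs (median 370.5). Spots off the tissue held 523115 UMIs in NHP1 and 76907 in NHP2, which serve as the background measured in the same way. Marker genes of every layer of the eyecup were detected in both sections, and the summed level of the sclera markers was 4.48-fold higher in NHP2 (93.8 UMIs per 10000) than in NHP1 (21.0). The same slide position was under tissue in both sections for 67 barcodes. All levels below are UMIs of a gene per 10000 UMIs of the same area, so a level for a whole section depends on how much sclera and choroid the section holds. In such spots fewer cones and less RNA per cone cannot be told apart.

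ARR3 and OPN1LW made up nearly all of the member UMIs, and the other 3 genes were detected in few molecules. ARR3, the arrestin, had 765 UMIs in NHP1 tissue, a level of 5.15 (95% interval 4.79 to 5.53), and 212 UMIs in NHP2 tissue, a level of 2.63 (2.29 to 3.01). OPN1LW, the red opsin, had 482 UMIs in NHP1, a level of 3.25 (2.96 to 3.55), and 116 UMIs in NHP2, a level of 1.44 (1.19 to 1.73). Both genes were at a higher level in NHP1 than in NHP2, with intervals that did not overlap. OPN1MW3, the green opsin, had 31 UMIs in NHP1 (level 0.209) and 5 in NHP2 (0.0621). GNAT2, the transducin subunit, had 23 UMIs in NHP1 (0.155) and 5 in NHP2 (0.0621). OPN1SW, the blue opsin, had 3 UMIs in NHP1, each in a different spot, and 0 in NHP2, where 3 UMIs would have been a level of 0.0372. In NHP1, OPN1SW thus had fewer UMIs than OPN1MW3 and GNAT2, whose intervals overlapped, and in NHP2 the counts are too sparse for an order among these 3 genes. Summed over the 5 members, the level was 8.78 (8.31 to 9.27) in NHP1 and 4.19 (3.76 to 4.67) in NHP2. The 11 rod genes that served as comparison summed to 80.0 in NHP1 and 54.6 in NHP2. Taken as the mean of each spot's own level over tissue spots with at least 200 UMIs, the member level of NHP2 was 1.98. Such a mean gives each of the spots kept the same weight, whatever its depth.

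Photoreceptors form the outer edge of the neural retina, and the cone genes were seen in part of the tissue spots. A UMI of ARR3 was found in 233 of 534 tissue spots of NHP1 (43.6%, 39.4 to 48.0) and in 57 of 470 of NHP2 (12.1%, 9.32 to 15.4). OPN1LW was found in 180 spots of NHP1 (33.7%, 29.7 to 37.9) and in 34 of NHP2 (7.23%, 5.06 to 9.96). Any of the 5 members was found in 276 spots of NHP1 (51.7%) and in 66 of NHP2 (14.0%). These shares move with depth: tissue spots with OPN1LW had a median of 3579.5 UMIs in NHP1 and 6265.5 in NHP2, against 843 and 324.5 in spots without it. With each spot of at least 200 UMIs (509 in NHP1 and 306 in NHP2) thinned to that number, any member was found in 13.9% of NHP1 spots and 3.59% of NHP2 spots. In the map of cone and rod UMIs, both sets followed the same curved bands, and in NHP1 they also spread thinly over neighbouring tissue.

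**Figure D1:**
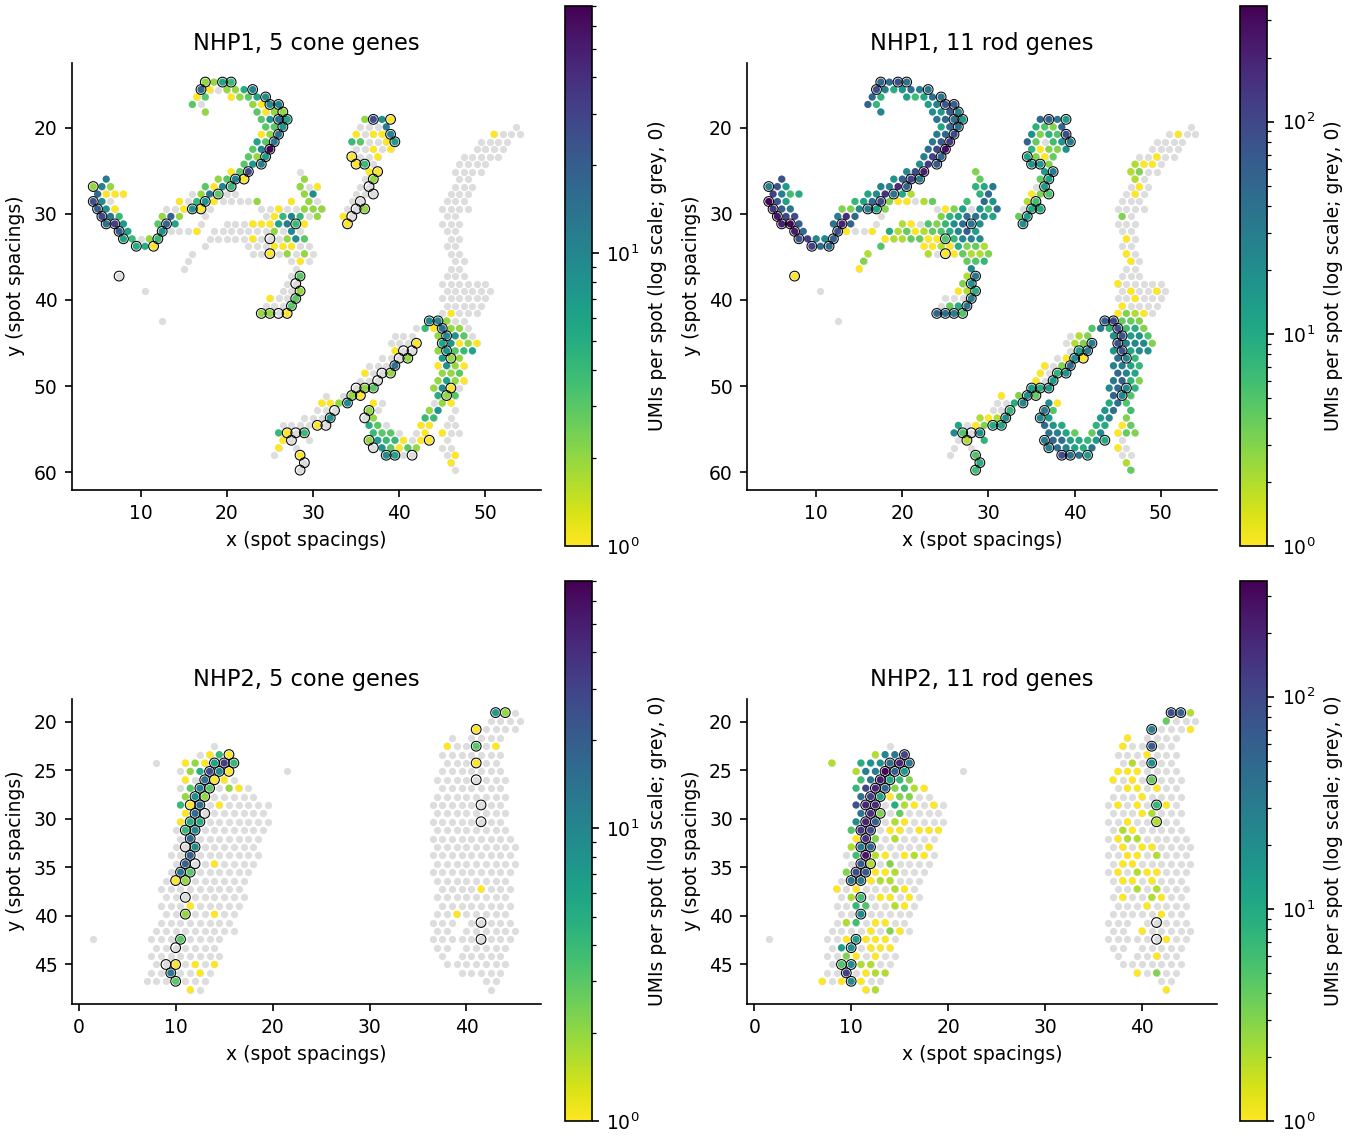
UMIs per tissue spot (colour, log scale; grey, 0) of the 5 cone genes (left) and the 11 rod genes (right) in NHP1 (top) and NHP2 (bottom), placed by spot position in units of the spacing between neighbouring spots. Black rings mark the 110 spots of NHP1 and the 49 of NHP2 in regions named by photoreceptor marker genes, and the spots with the most cone UMIs lie along them.

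To place the members in the layers of the eye, tissue spots were clustered without any cone or rod gene of the lists used here, and each region was named only where other marker genes of a layer stood out in it. NHP1 had 2 photoreceptor marker regions with 110 spots and 316679 UMIs. The larger, of 58 spots, had ARHGAP26, HPDL, SLC6A12 and ACBD7 among its leading genes, those of highest fold outside the cone and rod lists. The smaller, of 52 spots, was shallower (median 863 UMIs per spot against 3794.5) and was led by ENSMMUG00000047393, SLC40A1, PSRC1, SCFD1 and POM121C. NHP2 had 1 such region, with 49 spots and 338733 UMIs, led by SMIM17, GRTP1, XRCC3, KCNH8 and TULP1, of which TULP1 is a photoreceptor gene. Markers of the retinal pigment epithelium (RPE), the layer that the outer segments touch, were also raised in 2 of these regions. Against the rest of the tissue they were at 1.83-fold in the larger NHP1 region and 2.46-fold in the NHP2 region. In the smaller NHP1 region they were lower, at 0.574-fold. The part of that mixture in the member levels was not tested.

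OPN1LW and ARR3, the members with enough UMIs to be ordered, were highest in the photoreceptor marker regions among all marker regions. OPN1LW reached 8.27 (7.30 to 9.34) in these regions of NHP1 and 3.07 (2.51 to 3.72) in that of NHP2. ARR3 reached 12.1 (10.9 to 13.4) in NHP1 and 5.37 (4.62 to 6.21) in NHP2. GNAT2 had 11 of its 23 UMIs there in NHP1 and 5 of 5 in NHP2. OPN1MW3 had 16 of 31 there in NHP1 and 3 of 5 in NHP2. All 3 UMIs of OPN1SW lay in these regions of NHP1. The sum of the members was 21.3 in both NHP1 regions, with an interval of 17.4 to 25.7 in the shallower. In NHP2 the sum was 8.68 (7.72 to 9.73). The region of NHP2 held 104 of the 116 OPN1LW UMIs of that section (89.7%), whereas the regions of NHP1 held 262 of 482 (54.4%). The NHP2 value depends on how the region was drawn: a coarser clustering gave 74 spots and a summed level of 5.20, and clustering with all genes gave no region named by photoreceptor markers in that section.

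The share of spots with a molecule told the same areas apart. OPN1LW was found in 65 of 110 photoreceptor marker spots of NHP1 (59.1%; median depth 1677.5 UMIs) and in 15 of 135 sclera marker spots (11.1%; median depth 533), where no photoreceptors are known to lie. In NHP2 it was found in 27 of 49 spots of the photoreceptor marker region (55.1%; median depth 4218) and in 1 of 149 sclera marker spots (0.671%; median depth 710). For ARR3 the shares were 71.8% and 14.1% in NHP1 and 69.4% and 7.38% in NHP2. The depth differs between these areas as well, and its part in the shares was not tested.

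Outside the photoreceptor marker regions, the sections differed in how much cone RNA was seen. In NHP1 the summed members were at 3.94 (3.43 to 4.50) in the inner nuclear layer marker region, 6.82 (6.02 to 7.69) in the ganglion cell layer marker regions, 5.97 (4.73 to 7.44) in the RPE marker region and 6.87 (5.37 to 8.67) in the sclera marker regions. In the spots marked as off the tissue, the level was 6.48 (5.81 to 7.21). On this scale the other NHP1 regions did not exceed the off-tissue level beyond counting error. Per spot they held more, with 3.51 member UMIs in the inner nuclear layer marker region, 1.67 in the ganglion cell layer, 1.14 in the RPE and 0.526 in the sclera marker regions, against 0.0791 off the tissue. Choroid markers were raised in the NHP1 RPE marker region, 3.94-fold against the rest of the tissue, beside 6.20-fold for the RPE markers. No NHP1 region was named for the choroid. Whether the member UMIs of these other regions come from RNA of the layer itself or of neighbouring photoreceptors was not tested. In NHP2 the summed members were at 0.969 (0.638 to 1.41) in the ganglion cell layer marker region and at 0.932 (0.496 to 1.59) in the sclera marker regions. They had 1 UMI in the RPE marker region, 2 in the choroid marker region and 1 in the unnamed regions. Inner nuclear layer markers were also raised in the NHP2 ganglion cell layer marker region, 2.54-fold against the rest of the tissue. No NHP2 region was named for the inner nuclear layer. Off the tissue of NHP2 the level was 4.94 (3.50 to 6.78), from 38 UMIs. Per spot, the rest of the NHP2 tissue held 0.105 member UMIs and the spots off the tissue 0.00944. Off-tissue spots farther than 3 spacings from any tissue held 3 member UMIs in NHP2, a level of 1.69, and a level of 7.86 in NHP1. The neighbouring levels in the order within NHP1 (sclera, ganglion cell layer, off tissue and RPE) had overlapping intervals, as did those of ganglion cell layer and sclera in NHP2. The plot of levels by marker region sets these values side by side.

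**Figure D2:**
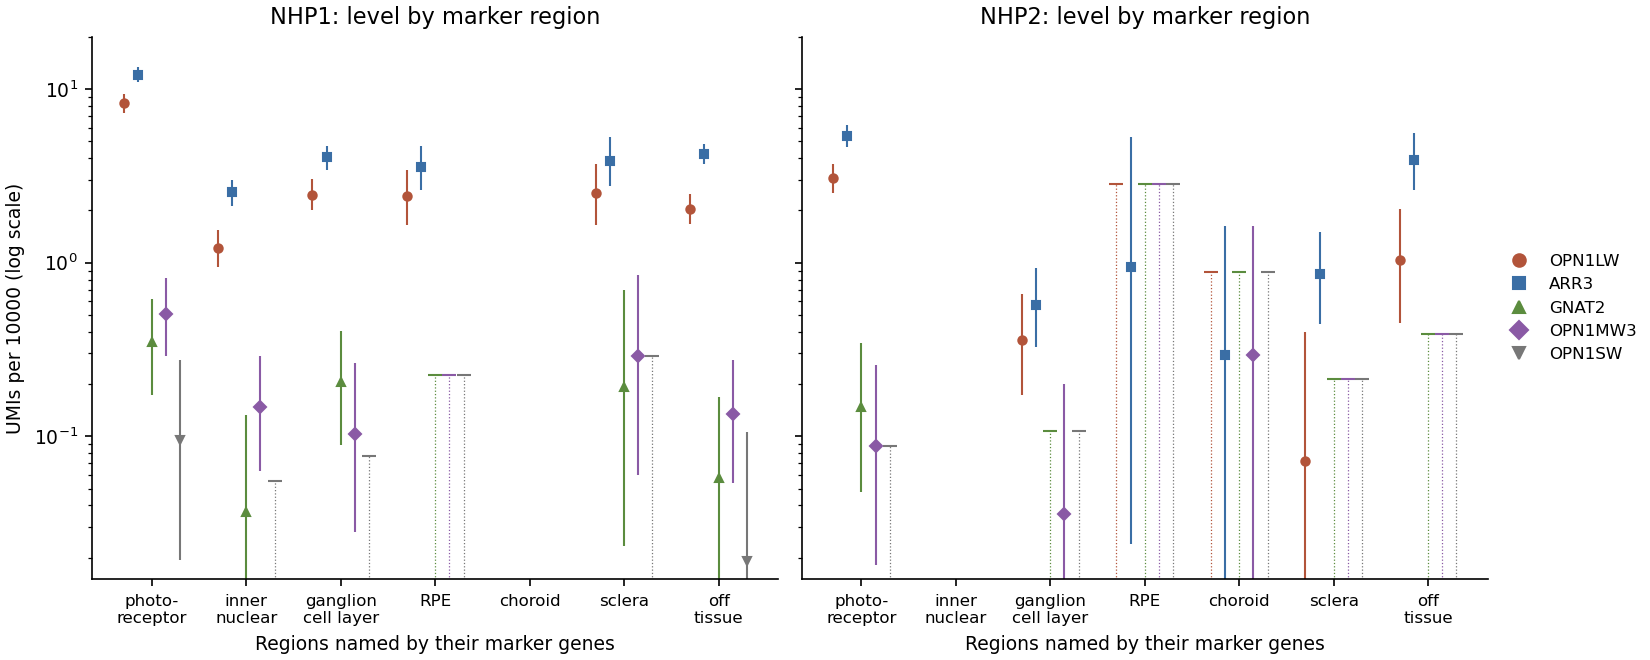
Level of each cone gene (UMIs per 10000, log scale) in each marker region and off the tissue, in NHP1 (left) and NHP2 (right). Points are UMI sums over the area with exact Poisson 95% intervals, a horizontal tick on a dotted line is the level that 3 UMIs would give where the count was 0, and an empty column means that the section had no region of that name. OPN1LW and ARR3 are highest in the photoreceptor column of both sections, at 8.27 and 12.1 in NHP1 and 3.07 and 5.37 in NHP2.

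The member level changed with distance from the photoreceptor marker spots, within and off the tissue. Counted in spot spacings from the nearest photoreceptor marker spot, the summed members in NHP1 tissue fell from 21.3 in those spots to 6.57 at 1 spacing, 4.13 at 2, 4.92 at 3 to 4 and 1.11 beyond 4. In NHP2 tissue the sequence was 8.68, 0.826, 1.80, 0.893 and 0. Off-tissue spots next to photoreceptor marker spots held the highest levels off the tissue, 12.9 in NHP1 and 26.4 in NHP2, the latter from only 17 UMIs. Beyond 4 spacings the off-tissue level was 5.41 in NHP1 and 2.42 in NHP2. For ARR3 alone the tissue levels of NHP1 were 12.1, 3.91, 2.75, 2.80 and 0.370 over the same bands, and for OPN1LW they were 8.27, 2.40, 1.20, 1.87 and 0.555. The largest drop in UMIs per 10000 lay within the first spacing for both genes, and the largest fold drop of ARR3 lay beyond 4 spacings, where it had 2 UMIs.

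The level in the photoreceptor marker regions was next divided by that in the rest of the tissue of the same section. For OPN1LW the levels were 8.27 and 1.88 in NHP1, a ratio of 4.39 (3.66 to 5.28). In NHP2 they were 3.07 and 0.257, a ratio of 11.9 (6.56 to 23.9). For ARR3 the levels were 12.1 and 3.27 in NHP1, a ratio of 3.70 (3.20 to 4.27), and in NHP2 they were 5.37 and 0.642, a ratio of 8.36 (5.66 to 12.8). These 2 members had at least 50 UMIs in each section and both exceeded a ratio of 2, which 5.67% of the 5311 genes of that depth did in NHP1 and 12.2% of 3453 in NHP2. OPN1LW ranked 6 and ARR3 15 among those genes in NHP1, and they ranked 3 and 10 in NHP2. The median ratio over the same genes was 0.990 in NHP1 and 1.14 in NHP2. Of the members below 50 UMIs, OPN1MW3 had a ratio of 3.93 (1.82 to 8.54) and GNAT2 of 3.38 (1.35 to 8.37) in NHP1. Summed over the 5 members, the ratio was 3.96 (3.55 to 4.42) in NHP1 and 9.21 (6.69 to 13.0) in NHP2. The member level in the rest of the tissue did not exceed the off-tissue level in either section on the scale of UMIs per 10000 (5.38 and 0.942). Averaged over spots with at least 200 UMIs rather than summed, the NHP2 ratio of the 5 members was 13.9. With the coarser clustering it was 5.76. For OPN1LW in NHP2 the same settings gave 24.0 and 17.4, and for ARR3 they gave 12.0 and 4.31.

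Other genes of the cone pathway were measured more thinly. Of 12 listed genes in the reference, 11 had a UMI in NHP1 tissue and 9 in NHP2, and CNGA3, a subunit of the cone cation channel, had 0 in both. With at least 50 UMIs, 3 of 4 exceeded a ratio of 2 in NHP1 and 1 of 1 in NHP2. PDE6H, the inhibitory subunit of the cone phosphodiesterase, had 125 UMIs in the photoreceptor marker regions of NHP1 against 98 in the rest, a ratio of 4.70 that ranked 3, and 32 against 5 in NHP2. GNB3, the beta subunit of cone transducin that is also made by bipolar cells, had a ratio of 2.59 in NHP1 and 4.56 (3.61 to 5.79) in NHP2. KCNV2, a potassium channel subunit of rods and cones, was at 3.63 in NHP1 and 7.81 in NHP2. RXRG, a nuclear receptor gene of cones, had a ratio of 1.54 (0.923 to 2.49) in NHP1 and 0.795 (0.392 to 1.56) in NHP2, and both intervals included 1. GUCA1C, a calcium-sensing activator of the guanylate cyclase in cones, had 22 UMIs in NHP1 and a ratio of 6.46 (2.53 to 17.8).

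Rod genes were higher in the same regions. All 11 listed rod genes in the reference had a UMI in both sections, and all of those with at least 50 UMIs exceeded a ratio of 2, 7 of 7 in NHP1 and 6 of 6 in NHP2. SAG, the rod arrestin, had a ratio of 3.38 in NHP1 and 9.58 in NHP2. GNGT1, the gamma subunit of rod transducin, stood at 4.03 in NHP1 and 6.83 in NHP2. PDE6A, a catalytic subunit of the rod phosphodiesterase, stood at 2.47 in NHP1 and 7.85 in NHP2. NRL, the transcription factor that sets rod identity, had 3.02 in NHP1 and 4.44 in NHP2. Over the summed list the ratio was 3.48 in NHP1 and 6.89 in NHP2, below the interval of OPN1LW and inside that of ARR3 in NHP1, and inside the intervals of both in NHP2. Set against the summed members, the rod ratio was lower in NHP1: the cone to rod UMI ratio in the rest of the tissue was 0.880 (0.784 to 0.988) of that in the photoreceptor marker regions, and 0.748 (0.527 to 1.04) in NHP2.

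**Figure D3:**
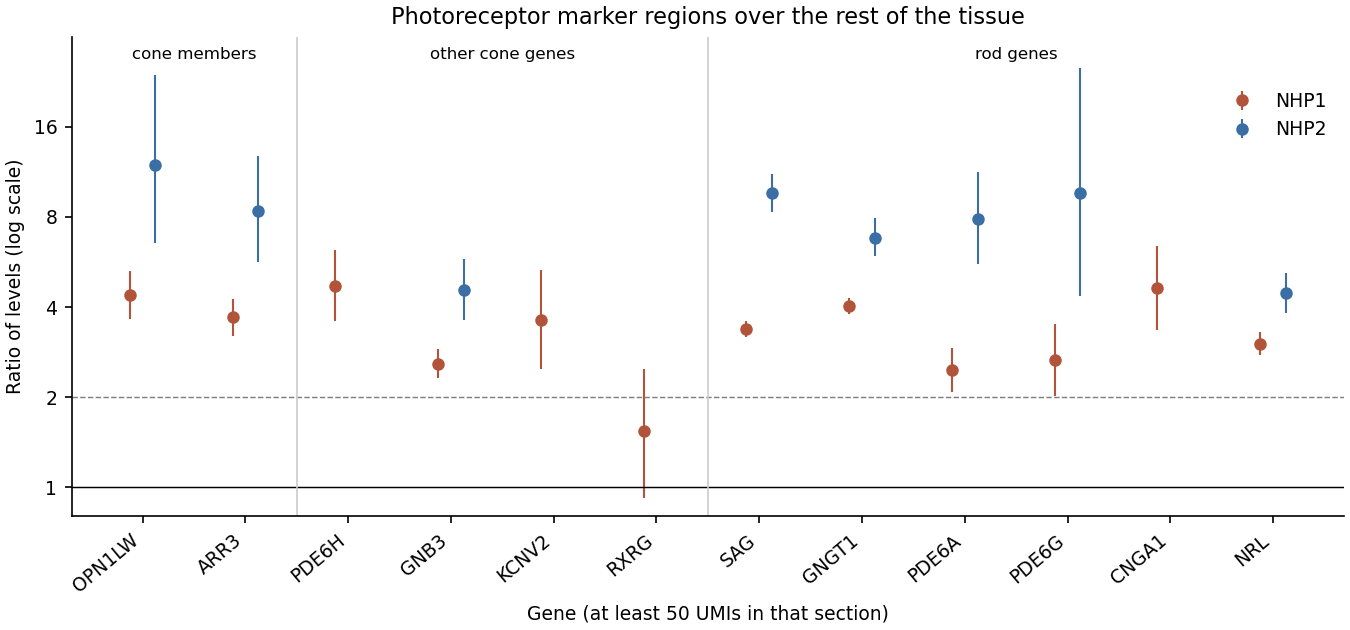
Level in the photoreceptor marker regions divided by the level in the rest of the tissue (log scale) for named cone and rod genes with at least 50 UMIs in that section. Points are NHP1 or NHP2 with exact conditional binomial 95% intervals, the solid line marks a ratio of 1 and the dashed line a ratio of 2. OPN1LW (4.39) and ARR3 (3.70 and 8.36) lie among the rod genes plotted for the same section, OPN1LW of NHP2 (11.9) lies above them with an interval that overlaps those of the rod genes plotted other than NRL, and of the genes plotted only RXRG lies below the dashed line.

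To compare cones with rods where both were counted in the same spots, the UMIs of the 5 members were divided by those of the 11 rod genes. Capture can differ between genes. The ratio is therefore one of molecules counted and not of cells, and it is compared only between areas. In the photoreceptor marker regions the ratio was 0.117 (0.108 to 0.127) in NHP1 and 0.0803 (0.0710 to 0.0904) in NHP2. The NHP1 ratio was 1.46-fold the NHP2 ratio (1.26 to 1.69), more than counting error. Within NHP1 it was lower in the inner nuclear layer marker region, at 0.0767 (0.0664 to 0.0882), and higher in the RPE marker region, at 0.211 (0.164 to 0.270), from 79 and 374 UMIs, which is 1.81-fold (1.38 to 2.34) the photoreceptor value. The ganglion cell layer (0.108), the sclera (0.146) and the spots off the tissue (0.0986) lay between these. Apart from the photoreceptor marker regions, these are the areas whose member level per 10000 UMIs did not exceed the off-tissue level beyond counting error. The higher NHP1 ratio in the RPE marker region depended on the rod genes used. Over NRL alone the members were at 0.814 (0.597 to 1.11) there and at 0.759 (0.686 to 0.840) in the photoreceptor marker regions. ARR3 over SAG, given below, was higher in the RPE marker region. In NHP2 the ganglion cell layer marker region had 0.0538 (0.0351 to 0.0792), and the other regions had 13 or fewer member UMIs.

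The arrestin pair, ARR3 over SAG, was 0.181 in the photoreceptor marker regions of NHP1 and 0.126 in that of NHP2, a 1.44-fold difference (1.19 to 1.75). The transducin pair had 11 GNAT2 against 16 GNAT1 UMIs in NHP1 and 5 against 3 in NHP2, too few for a comparison. In the NHP1 RPE marker region ARR3 over SAG was 0.356, or 1.97-fold (1.35 to 2.82) the photoreceptor value. In the NHP2 sclera marker regions 12 ARR3 UMIs stood beside 15 of SAG, a ratio 6.34-fold (2.67 to 14.8) that of the photoreceptor marker region. The pair of rod genes NRL over SAG shifted in the same areas, to 1.75-fold (1.31 to 2.32) the photoreceptor value in the NHP1 RPE marker region and 9.96-fold (5.61 to 18.8) in the NHP2 sclera marker regions, so these shifts were not particular to cone against rod genes.

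Each section lay on the slide in separate pieces, 3 of at least 5 spots in NHP1 and 2 in NHP2. The cone to rod ratio in the photoreceptor marker spots of NHP1 was 0.114 in the first piece, 0.115 in the second and 0.156 (0.115 to 0.207) in the third. In NHP2 it was 0.0528 (0.0285 to 0.0902) in the first piece and 0.0824 in the second. The pieces of 1 section overlapped in their intervals, and the second NHP2 piece held 280 of the 294 member UMIs of that region. Without its richest spot, which held 26 of its 56 member UMIs, the third NHP1 piece had a ratio of 0.0987 (0.0654 to 0.144), and the others without theirs had 0.109 and 0.106. The ARR3 level of that piece was 20.1 with the spot and 14.0 without it, and the OPN1LW level was 7.21 and 3.82. The first NHP2 piece, at 14 member UMIs, had a ratio of 0.0398 without its richest spot.

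**Figure D4:**
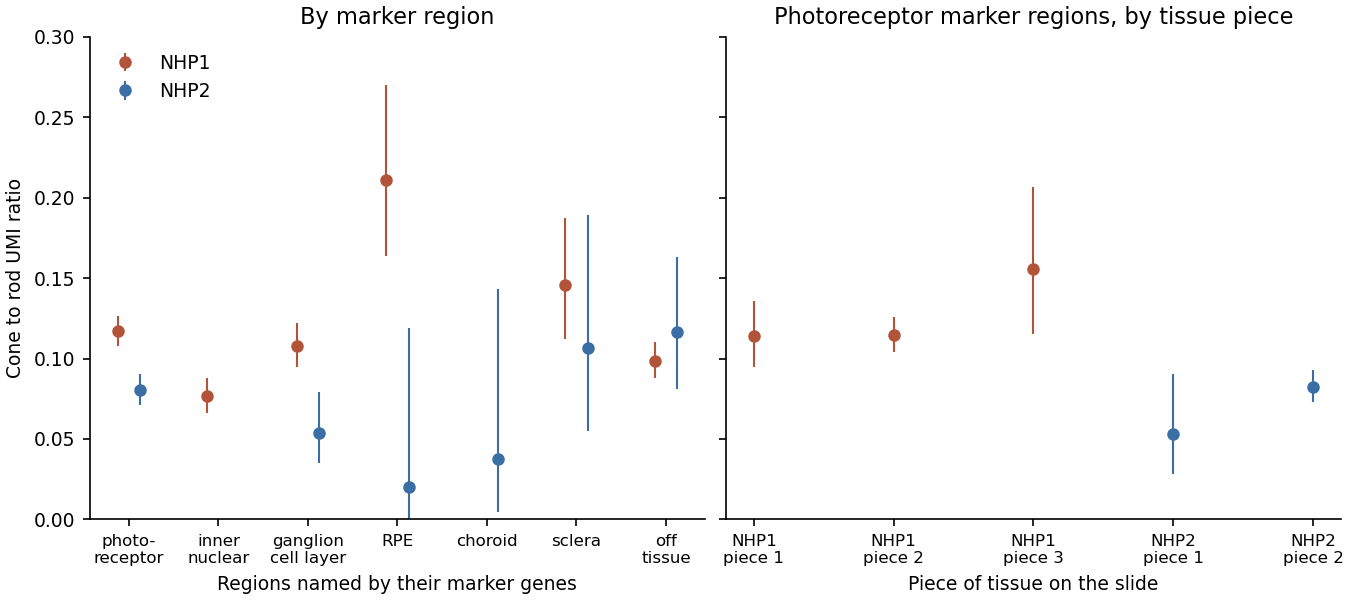
UMIs of the 5 cone genes divided by UMIs of the 11 rod genes, by marker region and off the tissue (left) and by tissue piece within the photoreceptor marker regions (right). Points are NHP1 or NHP2 with exact conditional binomial 95% intervals, and a missing point means that the section had no such region. In the photoreceptor column NHP1 is at 0.117 and NHP2 at 0.0803, and NHP1 is highest in its RPE column, at 0.211.

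OPN1LW dominated the opsin molecules of both animals. It made up 93.4% of the 516 cone opsin UMIs in NHP1 tissue and 95.9% of 121 in NHP2. OPN1MW3 made up 6.01% (4.12 to 8.42) in NHP1 and 4.13% (1.36 to 9.38) in NHP2, shares that did not differ beyond counting error. Since the 3′ ends of these genes are nearly the same, as printed before, these shares can depend on how reads were assigned. They are not taken as numbers of red and green cones. Where the reads fell on the 2 genes was not tested. OPN1SW, which lies on another chromosome, made up 0.581% (0.120 to 1.69) in NHP1. In NHP2 it was 0 of 121 UMIs, where 3 UMIs would have been a share of 2.48%, so no difference between the animals was detectable at this depth.

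The balance of opsin to arrestin was also followed. OPN1LW over ARR3 was 0.684 in the photoreceptor marker regions of NHP1 and 0.571 in that of NHP2, a 1.20-fold difference with an interval from 0.890 to 1.61. Within NHP1 the ratio was lower in the inner nuclear layer marker region (0.478) and off the tissue (0.484), at 0.699 (0.493 to 0.986) and 0.708 (0.529 to 0.944) of the photoreceptor value. Off the tissue of NHP2 it was 0.267, from 8 and 30 UMIs. That was 0.468 of the photoreceptor value, with an interval (0.178 to 1.09) that included 1. The intervals of the same comparison for the ganglion cell layer, RPE and sclera marker regions of NHP1 included 1.

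Single spots varied widely. The members had 0 to 68 UMIs per photoreceptor marker spot in NHP1 (median 2) and 0 to 32 in NHP2 (median 3). The richest NHP1 spot, with 68 members (27 OPN1LW, 39 ARR3 and 2 OPN1MW3) among 13994 UMIs, held 10.1% of the member UMIs of its regions, and the richest NHP2 spot held 10.9%. The 5 richest spots held 27.3% in NHP1 and 38.4% in NHP2. For the rod genes the 5 richest spots held 24.9% and 32.5%, so concentration in 5 spots was not peculiar to the cone genes. The richest single spot held less of the rod UMIs, 5.87% in NHP1 and 8.95% in NHP2. Among spots with at least 50 cone and rod UMIs, the cone share of these UMIs ran from 3.70% to 31.7% (median 9.30%) over 37 spots of NHP1 and from 0.535% to 21.8% (median 7.32%) over 26 spots of NHP2. Pooled over all photoreceptor marker spots, whatever their depth, the shares were 10.5% (9.73 to 11.2) and 7.43% (6.63 to 8.29). In NHP1 the interval of 4 single spots lay above the pooled share and that of 2 below it, and in NHP2 2 lay above and 4 below. The extremes were an NHP1 spot with 26 cone and 56 rod UMIs and an NHP2 spot with 1 cone and 186 rod UMIs among 39744 UMIs in all.

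**Figure D5:**
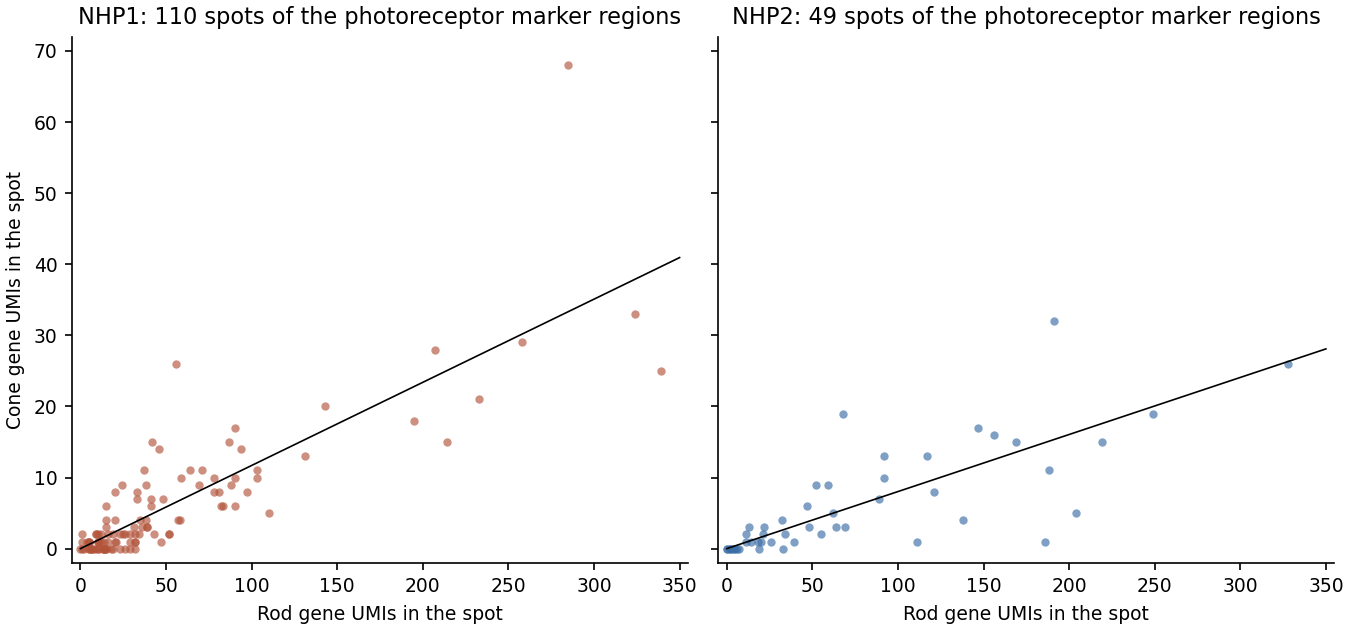
Cone gene UMIs against rod gene UMIs in each spot of the photoreceptor marker regions of NHP1 (left, 110 spots) and NHP2 (right, 49 spots). Each point is a spot, and the line has the pooled cone to rod ratio of the section, 0.117 and 0.0803. The spot with 68 cone UMIs and the spot with 26 cone and 56 rod UMIs stand above the NHP1 line.

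The members were often found in the same spots. In NHP1 tissue 141 spots held both OPN1LW and ARR3, 39 held OPN1LW without ARR3 and 92 held ARR3 without OPN1LW. In NHP2 the numbers were 26, 8 and 31. OPN1MW3 lay with OPN1LW in 23 of 27 spots of NHP1 and 3 of 5 of NHP2. The 3 spots with OPN1SW in NHP1 all held OPN1LW too. GNAT2 lay with OPN1LW or ARR3 in 19 of 21 spots of NHP1 and in 5 of 5 of NHP2. Deep spots hold more of every gene, so shared spots do not show shared cells. Over tissue spots with at least 200 UMIs, the log level of the summed members and that of the summed rod genes correlated at r = 0.548 in NHP1 (509 spots) and r = 0.511 in NHP2 (306 spots). Within the photoreceptor marker regions the correlation was 0.143 over 107 spots of NHP1 and 0.696 over 49 spots of NHP2. That of OPN1LW with ARR3 in the same spots was 0.447 and 0.590. All these spots share a library and differ in depth, and the correlations are descriptions.

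The genes whose log level was most like that of the summed members over the same spots included many photoreceptor genes. In NHP1, out of 3005 genes with at least 100 UMIs, they were GUCA1A (r = 0.583), SAG (0.580), ROM1 (0.567), GNGT1 (0.559), GAS7 (0.555), PROM1 (0.547), GUCA1B (0.536), RDH12 (0.535), RTBDN (0.531) and PDE6H (0.523). GUCA1A and GUCA1B encode activators of the photoreceptor guanylate cyclase, and ROM1 and PROM1 encode membrane proteins of the outer segment. In NHP2, out of 1603 genes, they included ABCA4 (0.671), GNGT1 (0.655), PDE6A (0.646), SAG (0.592), ENSMMUG00000042422 (0.588), PLEKHB1 (0.577), NDUFS4 (0.568), USP12 (0.565) and PTP4A3 (0.562). ABCA4 encodes the retinoid transporter of the outer segment discs. SAG and GNGT1, both rod genes, were on both lists. PDE6H on the NHP1 list was the sole gene of either list that came from the other cone genes.

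The deposited tables also give Moran's I for each gene, a score of spatial clustering near 0 for a scattered gene. ARR3 had 0.192 in NHP1 (rank 130 of 13804 genes) and 0.139 in NHP2 (rank 145 of 12542). OPN1LW had 0.182 in NHP1 (rank 148) but 0.00377 in NHP2 (rank 4975). Computed on log levels over neighbouring tissue spots with at least 200 UMIs, Moran's I of OPN1LW was 0.303 in NHP1 and 0.290 in NHP2. Over all tissue spots it was 0.158 for OPN1LW in NHP2. The low deposited score of OPN1LW in NHP2 was thus not seen in this computation, and the input scale of the deposited score is not given in the sources used here.

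Between the animals, the members were lower in NHP2 than in NHP1 also within the photoreceptor marker regions. The OPN1LW levels of 3.07 and 8.27 there gave an NHP2 to NHP1 ratio of 0.371 (0.293 to 0.467), and the ARR3 levels of 5.37 and 12.1 gave 0.444 (0.370 to 0.531). Both members lay below a ratio of 0.5, as did 2.29% of the 2796 genes compared, whose median ratio was 1.06, while 4.76% of them lay above 2. For all 5 members together the ratio was 0.407 (0.354 to 0.468), for the other cone genes 0.484, for the rod genes 0.593 (0.569 to 0.619) and for the photoreceptor markers 0.825. With each spot classed by its own marker genes in place of clusters, the ratio of the members was 0.632. OPN1LW (0.644) and ARR3 (0.643) then both lay above 0.5. Averaged over spots with at least 200 UMIs, OPN1LW was at 0.459 and ARR3 at 0.510. Markers of most other layers were higher in the NHP2 region, with ratios of 1.09 for the RPE, 1.72 for the inner nuclear layer, 1.68 for the choroid and 2.60 for the sclera, while those of the ganglion cell layer were lower, at 0.581 (0.431 to 0.778). Animal, age, vector, library and the place and makeup of the section differ together between these samples and cannot be told apart.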

How the data were processed

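The members and gene lists were chosen with earlier results of these data known. The authors deposited, for each section, raw UMI counts per gene and spot made with Space Ranger 2.1.0 against a Mmul_10 reference that also held the vector transgenes, a mark for spots over tissue, and a table of all detected genes. The labels call the punches fresh frozen in one field and fixed with PFA before sectioning in another. Per gene, the deposited UMI sums over tissue matched sums made here from the matrix in NHP1 (13804 of 13804 genes) and in NHP2 (12542 of 12542). Of that table the authors' Moran's I, a score, was printed, and its p-values, adjusted p-values and average-count column were not used. The counting keeps only reads assigned to a single gene, so reads shared by OPN1LW and OPN1MW3 can be lost. How many were lost was not tested.

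Levels were UMI sums per 10000 UMIs of the area, with no filter on spots. For regions, all tissue spots with a UMI (4 of NHP2 had none) were clustered in Python 3.11.15 with scanpy 1.11.5 and leidenalg 0.10.2 (2000 variable genes, 20 principal components, 15 neighbours, resolution 1), after removal of all listed cone and rod genes. A region took the name of the layer whose summed markers stood highest over the rest of the tissue, where that fold was at least 1.5, at least 3 single markers with at least 3 UMIs each reached it too, and the 10 leading genes (by fold, at least 10 UMIs) did not go against it. A region whose median depth was below the section's median divided by 3 also needed a marker of the layer among these. Ratios across genes used genes with at least 50 UMIs. The named genes were the members, the 5 highest by UMI sum of each list (a tie gave a further cone gene) and the 10 genes most correlated with the members, of which some are not reported here. Intervals came from scipy 1.17.1, and the ratio script was tested on simulated data. GNGT2, CNGB1, RCVRN and CABP5, also on the lists, were not matched to the reference by symbol and were not analysed here, nor were sections of injected areas or libraries of dissociated cells. Precision is limited by depth: 1484784 tissue UMIs in NHP1 and 805726 in NHP2. Alternatives covered averaging over spots with at least 200 UMIs, the denominator, the UMI threshold, thinning, the clustering and the gene pairs.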

Additional observations from a re-analysis of the deposited data

How the results depend on the processing

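No paired analysis was possible because each animal gave 1 section and no result comes from a test. Of 70 alternative values of summaries (the summed members, the cone to rod and opsin shares, and counts of genes), 44 stayed close to the reported one (within its counting error, or within 1.5 times for counts of genes) and 26 moved. For OPN1LW and ARR3 alone, 48 of 80 stayed and 32 moved. The cause was not tested where none is given. Averaged over spots with at least 200 UMIs, the tissue level was 7.71 in NHP1 and 1.98 in NHP2 (reported 8.78 and 4.19). In the same averages the photoreceptor to rest ratio of NHP2 was 13.9 (9.21) and the NHP2 to NHP1 ratio 0.481 (0.407). With mitochondrial genes and the 50 most abundant genes left out of the total, which by construction raises levels, the tissue levels were 10.8 and 5.01. With at least 2 UMIs required, which by construction lowers shares, 36.5% and 8.09% of tissue spots held the members (51.7% and 14.0%), and with spots thinned to 200 UMIs 13.9% and 3.59%. Farther than 3 spacings from tissue, the off-tissue levels were 7.86 and 1.69 (6.48 and 4.94). With a Leiden resolution of 0.5, the photoreceptor region levels were 14.3 and 5.20 (21.3 and 8.68), the photoreceptor to rest ratios 3.05 and 5.76 (3.96 and 9.21) and the NHP1 cone to rod ratio 0.107 (0.117). With each spot classed by marker lists, the levels were 19.3 and 12.2, the NHP1 photoreceptor to rest ratio 4.52 and the NHP2 to NHP1 ratio 0.632. With matched gene pairs in place of the lists, cone to rod ratios in NHP1 and NHP2 were 0.688 and 1.67 for GNAT2 over GNAT1, which turns the order of the sections round on few UMIs, and 0.181 and 0.126 for ARR3 over SAG. With spots of at least 1000 UMIs, 6 of the 10 genes most like the members in NHP2 were shared with the reported list. Clustering with all genes gave no region named by photoreceptor markers in NHP2, so it has no value there. Leaving out the spot with the most member UMIs, of a section or of a tissue piece, was chosen after seeing the data. Left out of a section, it moved no value of the members over tissue or photoreceptor marker regions beyond counting error.

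Depth limits GNAT2, OPN1MW3 and OPN1SW most, with 31 or fewer UMIs each in a section. Shares of spots follow depth, which differed between the sections and their regions. With 1 section per animal, the spread between animals, eyes and sections is unknown.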
